A study of Mus musculus with 36 samples.

Results

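The genes described here are 9 markers of microglia, the resident macrophages of the brain: Aif1, Cx3cr1, P2ry12, Tmem119, Csf1r, Itgam, Trem2, Tyrobp and Cd68. They were taken by name, as the rows of the count tables whose Ensembl identifier carries one of those symbols in the GENCODE M21 annotation. All 9 were found among the 38924 mouse Ensembl identifiers of the tables, and all 9 passed the filter on low counts in each fit. Poly(A) RNA libraries were made from 3 tissues (hypothalamus, cortex and brainstem) in 2 mouse models of narcolepsy, with 3 libraries for each of 4 genotypes in each tissue, 36 libraries in all. The first model is the Hcrt/Orexin-ataxin-3 transgenic mouse (OX-At-tg/+), in which hypocretin neurons are lost to ataxin-3 expressed in them. The second is the Hcrt/Orexin knockout mouse, in which the peptide gene is knocked out, although its libraries still held some Hcrt counts, given below. Each model was compared with wild types of its own line, and the strain label of every sample is C57BL/6. The transgene acts in hypocretin neurons, whose cell bodies lie in the hypothalamus. The sources used here give no age, sex or animal for a library, so p-values measure the spread between libraries, part of which may be technical.

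Microglia survive on signalling through the receptor kinase CSF1R, which binds the cytokines CSF1 and IL34, and they sense neurons through the fractalkine receptor CX3CR1 and the purine receptor P2RY12. TREM2 is a lipid-sensing receptor that signals through the adaptor TYROBP, and CD68 is a lysosomal glycoprotein used as a sign of phagocytic content. AIF1, also called IBA1, is a calcium-binding actin regulator widely stained for in brain sections. ITGAM is the CD11b integrin chain, and TMEM119 is a membrane protein found in microglia and in few other brain cells. Several of these genes, among them Aif1, Csf1r, Itgam, Tyrobp and Cd68, are also expressed by macrophages at the borders of the brain and by blood monocytes. On GRCm38, Aif1 lies at chr17:35170991-35176068, Cx3cr1 at chr9:119901616-120069879, P2ry12 at chr3:59216272-59262871, Tmem119 at chr5:113793729-113800516, Itgam at chr7:128062640-128118491, Trem2 at chr17:48346401-48354147, Tyrobp at chr7:30413760-30417585 and Cd68 at chr11:69664213-69666153, and all 9 members are protein-coding genes. In whole tissue, fewer cells of a type and less RNA per cell cannot be told apart.

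Promoter windows are shown as background, because PU.1, the product of Spi1, is a factor well known for driving macrophage genes. RefSeq windows of 300 bases (250 before to 50 after the start site, build GRCm38.p6) were used for 6 of the 9 members: Aif1, Cx3cr1, P2ry12, Itgam, Trem2 and Cd68. No window of Tmem119, Csf1r or Tyrobp was counted, so the share of matches covers these 6 only. The letters GAGGAA, the core of the PU.1 consensus, were searched for on both strands, so that TTCCTC counts as a match on the other strand. They occurred in 4 of the 6 windows, and in 28.3% of the 32851 promoter windows of the same length. The windows of Cx3cr1 and P2ry12 do not hold these letters. The 4 that do are given 5′ to 3′ on the gene's own strand, with the match in capitals. They are Aif1 at chr17:35176003-35176302 (minus strand), Itgam at chr7:128062390-128062689 (plus), Trem2 at chr17:48346151-48346450 (plus) and Cd68 at chr11:69666121-69666420 (minus).
Aif1: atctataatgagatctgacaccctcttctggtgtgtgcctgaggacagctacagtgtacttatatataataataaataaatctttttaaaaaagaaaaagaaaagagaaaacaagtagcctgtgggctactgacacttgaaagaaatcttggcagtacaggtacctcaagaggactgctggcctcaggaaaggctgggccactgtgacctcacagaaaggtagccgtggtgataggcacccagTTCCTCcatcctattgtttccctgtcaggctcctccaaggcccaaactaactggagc
Itgam: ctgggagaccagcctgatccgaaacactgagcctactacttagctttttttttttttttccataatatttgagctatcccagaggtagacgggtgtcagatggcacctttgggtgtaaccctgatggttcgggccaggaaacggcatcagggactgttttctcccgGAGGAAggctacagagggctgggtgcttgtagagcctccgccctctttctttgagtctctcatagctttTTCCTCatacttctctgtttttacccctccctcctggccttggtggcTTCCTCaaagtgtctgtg
Trem2: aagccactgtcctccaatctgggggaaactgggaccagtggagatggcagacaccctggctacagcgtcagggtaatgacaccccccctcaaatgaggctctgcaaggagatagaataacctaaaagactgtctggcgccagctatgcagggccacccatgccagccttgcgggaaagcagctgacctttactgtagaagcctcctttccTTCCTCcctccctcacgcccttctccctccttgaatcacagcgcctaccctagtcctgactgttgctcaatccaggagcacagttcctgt
Cd68: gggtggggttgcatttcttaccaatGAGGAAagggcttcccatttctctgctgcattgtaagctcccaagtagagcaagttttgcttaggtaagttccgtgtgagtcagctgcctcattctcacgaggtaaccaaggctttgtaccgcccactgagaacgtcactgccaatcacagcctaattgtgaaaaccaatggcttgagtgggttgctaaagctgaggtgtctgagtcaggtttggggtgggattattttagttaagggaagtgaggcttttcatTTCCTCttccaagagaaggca
Itgam holds 3 matches, Cd68 holds 2, and Aif1 and Trem2 hold 1 each. A match describes the letters only, and the part of PU.1 in any difference between tissues was not tested.

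The libraries held between 21915540 and 47057537 counts in genes. Hcrt itself checks the labels: the 6 wild-type hypothalami held 2000 to 7126 counts of it, the ataxin-3 transgenic libraries 91, 63 and 122, and the knockouts 34, 39 and 34. In cortex, where Hcrt is low, the knockouts held 17, 10 and 9 counts, replicate 2 of their wild type 30, and the other 5 wild types 1 to 3. In brainstem the knockouts held 29, 27 and 42 counts and the 6 wild types 0 to 5, so replicate 2 of the knockout line's wild-type cortex lies with the knockouts by this gene. Without that library the members called in each comparison that uses it were as many as with it. Slc17a7, a vesicular glutamate transporter of cortical neurons, averaged 1294 ± 41.2 CPM (counts-per-million) in wild-type cortex and 37.9 ± 51.4 in wild-type hypothalamus (SD, n = 6). In hypothalamus the SD exceeded the mean, so those 6 libraries held uneven amounts of this gene. The part of that in the tissue differences below was not tested. There were 4 hypothalamus libraries with over 100 CPM of the pituitary hormone gene Gh or the olfactory neuron gene Omp. These were transgenic replicate 1 (Omp, 595 CPM), replicates 1 and 3 of its wild type (Gh, 22210 and 11720 CPM) and replicate 3 of the knockout line's wild type (Gh, 16260 CPM). In brainstem, replicates 1 and 2 of the ataxin-3 line's wild type stood apart: 32.3% and 42.0% of their counts lay in rows that name no gene, against 27.0% to 28.6% in the other 10 brainstem libraries, and 10.1% and 15.2% lay outside annotated features, against 6.38% to 7.33%. Values that rest on either set of libraries are given with and without them where the call or direction changes. All levels below are CPM after TMM scaling across the 36 libraries, and each difference is a log2 fold change with its standard error from edgeR's quasi-likelihood test. A gene is called where its Benjamini-Hochberg adjusted p over all genes tested was under 0.05.

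Cortex held more RNA of the microglia markers than hypothalamus or brainstem. In wild types, 8 of the 9 were called lower in hypothalamus than in cortex, by 0.45 (Tmem119) to 0.82 (P2ry12) on the log2 scale, and the same count was called higher in cortex than in brainstem. Tyrobp was the member that passed neither test. Both comparisons use the same cortex libraries and are therefore not independent of each other. Of all 17744 genes tested, 37.2% were called lower in hypothalamus than in cortex and 75.9% were called in either direction, so most genes differ between these tissues. Groups did not overlap for 7 members, lower in hypothalamus, as for 31.8% of all genes. The median of the 9 differences was -0.66, against 0.03 over all genes. Between cortex and brainstem 38.7% of genes were called higher and 78.6% in either direction, 7 members did not overlap (32.7% of all genes in the same direction), and the median of the 9 was 0.69 against -0.02 over all genes. Summed over the 9 genes, the 12 cortex libraries held 258.9 to 286.4 CPM, with no overlap with hypothalamus (156.6 to 193.1) or brainstem (154.2 to 187.8).

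**Figure D1:**
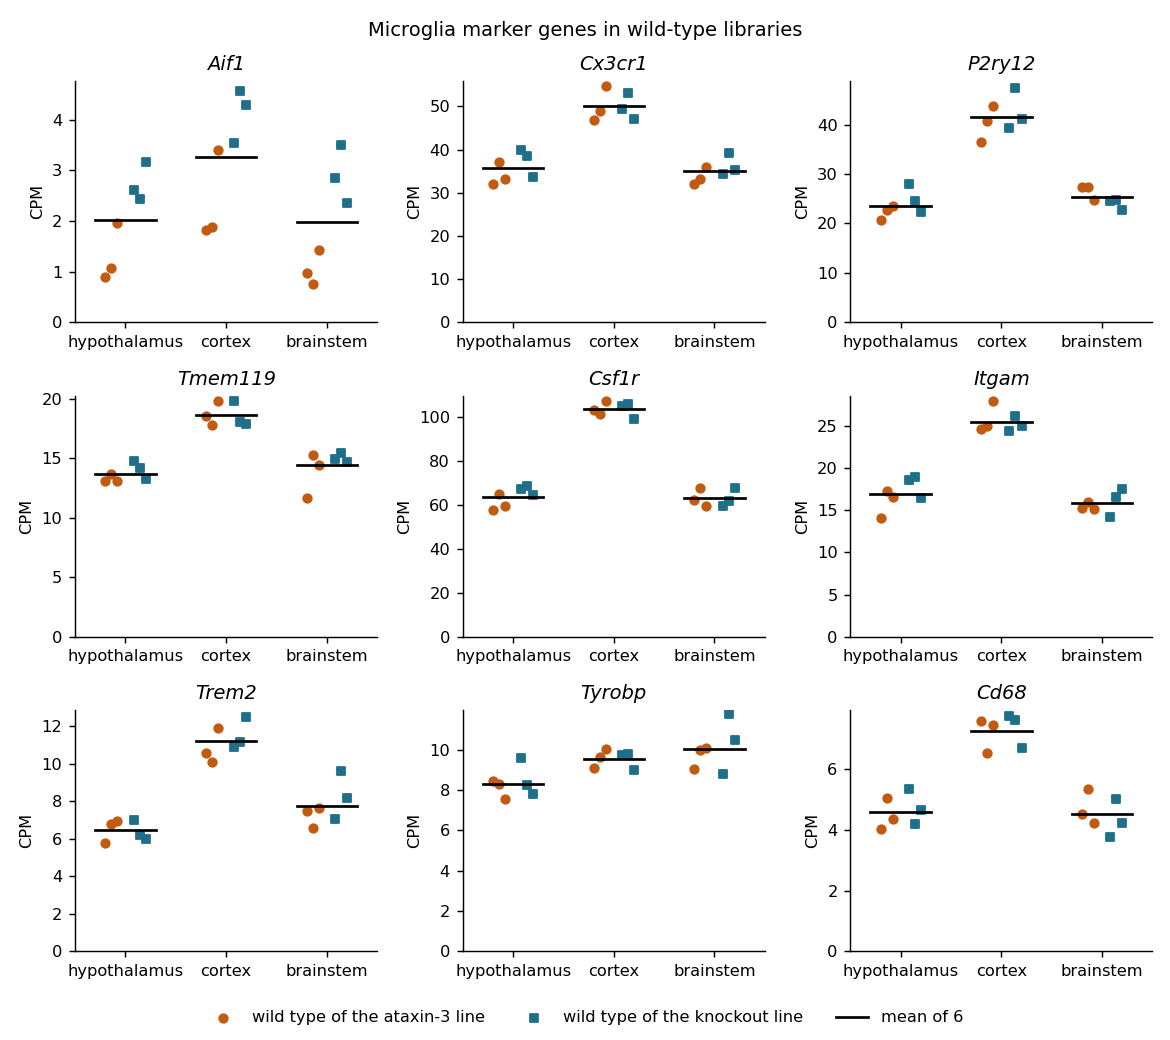
Level of each of the 9 genes in wild-type libraries by tissue, in TMM-scaled CPM (y axis, starting at 0). Each point is a library (circles, ataxin-3 line; squares, knockout line; 3 of each per tissue) and the bar is the mean of 6; cortex sits above the other tissues without overlap for 7 of the 9 genes, Tyrobp and Aif1 overlap between tissues, and for Aif1 the lines separate in every tissue.

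Csf1r, the growth factor receptor, ranged from 99.3 to 107.4 CPM with a median of 104.2 in wild-type cortex. It ranged from 57.7 to 68.9 (median 64.7) in hypothalamus and from 59.4 to 68.0 (median 62.2) in brainstem. No cortex library overlapped with either other tissue, and cortex was 1.63-fold above hypothalamus (log2 difference -0.70 for hypothalamus minus cortex, SE 0.05, adjusted p = 3.3e-14). P2ry12, the receptor for nucleotides, had medians of 40.9 CPM in cortex (36.5 to 47.5), 23.1 in hypothalamus (20.6 to 27.9) and 24.8 in brainstem (22.7 to 27.4). Its cortex level was 1.76-fold that of hypothalamus, the largest ratio among the 9, again with no overlap (adjusted p = 3.9e-11). Cx3cr1 had medians of 49.2, 35.4 and 34.8 CPM in cortex, hypothalamus and brainstem, and cortex was 1.40-fold above hypothalamus (SE 0.055 on the log2 scale, adjusted p = 2.6e-09). Trem2 averaged 11.2 ± 0.88 CPM in cortex, 6.45 ± 0.54 in hypothalamus and 7.75 ± 1.05 in brainstem (SD, n = 6), a 1.73-fold difference between cortex and hypothalamus (adjusted p = 2.8e-09).

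Tyrobp encodes the adaptor through which TREM2 signals, and it was not called higher in cortex as Trem2 was. Its wild-type libraries ranged from 8.99 to 10.03 CPM in cortex (median 9.70), 7.54 to 9.62 in hypothalamus (median 8.28) and 8.79 to 11.8 in brainstem (median 10.04). All 3 ranges overlap. Hypothalamus minus cortex was -0.20 (SE 0.09, adjusted p = 0.053), which passed in 8 of the 20 other settings tried (adjusted p from 0.0061 to 0.29 over the 20), and cortex minus brainstem was -0.07 (SE 0.09, adjusted p = 0.50). Trem2 over the same pairs gave -0.79 (SE 0.09) and 0.53 (SE 0.09). The difference between the 2 genes was not tested. Between hypothalamus and brainstem they moved alike, as given further on, and their correlation across libraries after subtracting tissue means was 0.572.

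The integrin, membrane and lysosome markers moved like the receptors. Itgam averaged 25.5 ± 1.32 CPM in cortex, 17.0 ± 1.78 in hypothalamus and 15.8 ± 1.16 in brainstem (SD, n = 6), and cortex overlapped with neither. Of the exonic bases of Itgam, 68.7% are shared on the same strand with the overlapping gene model Gm49368, which has no row in the tables, so how such reads were assigned is not known. Cd68 averaged 7.28 ± 0.53 CPM in cortex, 4.61 ± 0.51 in hypothalamus and 4.53 ± 0.57 in brainstem, a 1.58-fold difference between cortex and hypothalamus (adjusted p = 4.8e-08). Tmem119 had the smallest called difference, with 18.7 ± 0.95 CPM in cortex, 13.7 ± 0.69 in hypothalamus and 14.4 ± 1.40 in brainstem (adjusted p = 7.1e-07 against hypothalamus). Aif1 was the lowest and most variable of the 9, with 14 to 170 counts per library, and averaged 3.26 ± 1.17 CPM in cortex, 2.03 ± 0.90 in hypothalamus and 1.98 ± 1.10 in brainstem. Its tissues overlapped, and the wild types of the lines lay apart within each tissue, as described further on. The tissue differences of Aif1 were called (-0.72, SE 0.20, adjusted p = 0.0018 for hypothalamus minus cortex; 0.83, SE 0.21, adjusted p = 0.00059 for cortex minus brainstem). The strand setting of the counting is not given in the sources used here, so reads of an antisense partner may be included. Of the exonic bases of Csf1r, 15.1% lie opposite exons of Hmgxb3, and the shares were 1.73% for Cx3cr1 (opposite Gm33858) and 0.353% for P2ry12 (opposite Med12l).

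Hypothalamus and brainstem were close for most members. Their 9 differences had a median of 0.01, against 0.03 over all genes, and 2 of the 9 were called, both lower in hypothalamus, while 32% of all genes were called lower and 68.2% in either direction. The 2 were the pair Trem2 (-0.26, SE 0.09) and Tyrobp (-0.27, SE 0.09), each with an adjusted p of 0.012, and both overlapped between the tissues. Neither was called once the 4 libraries with Gh or Omp were left out (adjusted p = 0.13 for each), where Itgam was called higher in hypothalamus instead (0.19, SE 0.08, adjusted p = 0.044). Without replicate 2 of the knockout line's wild-type brainstem, the highest brainstem library for both genes, Trem2 was -0.20 with an adjusted p of 0.056.

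Divided by exon length, the genes can be ranked against each other. In wild-type cortex the order was Csf1r (17.98 ± 0.54 CPM per kb), P2ry12 (16.3 ± 1.49), Tyrobp (14.3 ± 0.61), Cx3cr1 (11.1 ± 0.72), Tmem119 (8.06 ± 0.41), Cd68 (5.79 ± 0.42), Itgam (5.08 ± 0.26), Trem2 (2.26 ± 0.18) and Aif1 (2.13 ± 0.77), each as mean and SD over 6 libraries. Trem2 and Aif1 differed by less than their spread in all 3 tissues. So did Cd68 and Itgam in hypothalamus (3.66 ± 0.40 and 3.38 ± 0.35) and in brainstem (3.60 ± 0.46 and 3.15 ± 0.23). In hypothalamus and brainstem Tyrobp led instead, at 12.5 ± 1.07 and 15.04 ± 1.6 CPM per kb, ahead of Csf1r at 11.0 ± 0.75 and 10.9 ± 0.67. The length used is that of all annotated exons merged, from 667 bp for Tyrobp to 5774 bp for Csf1r, which can exceed that of the transcript made. The order thus depends on the annotation, as for Trem2, which was divided by 4946 bp.

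Genes around the 9 in the same pathways did not all share the cortical excess. These lists, like the members, were chosen with results of these data known. Of 18 other genes expressed by microglia, 12 were called lower and 1 higher in hypothalamus than in cortex (median -0.30), and 10 were called higher and 4 lower in cortex than in brainstem (median 0.24). Of all genes, 37.2% were called lower and 38.7% higher in the first comparison, and 38.7% higher and 39.8% lower in the second. Cd33, a sialic acid-binding inhibitory receptor, averaged 6.47 ± 0.56 CPM in cortex and 2.48 ± 0.31 in hypothalamus. Fcrls, an Fc receptor-like gene, averaged 23.6 ± 1.77 CPM in cortex, 14.04 ± 1.58 in hypothalamus and 11.1 ± 1.26 in brainstem. Siglech, a lectin gene used as a microglia marker, averaged 15.7 ± 0.87 CPM in cortex and 9.83 ± 0.76 in hypothalamus. Lgmn, a lysosomal protease gene, ran the other way, at 94.1 ± 3.05 CPM in cortex, 134.5 ± 6.31 in hypothalamus and 202.0 ± 8.96 in brainstem (cortex minus brainstem -1.10, SE 0.05, adjusted p = 1.3e-19). Summed over the 18 genes, brainstem libraries held 506.7 to 561.0 CPM, above the cortex libraries at 444.1 to 500.6, and hypothalamus libraries held 405.2 to 520.1, so that sum did not follow the sum of the 9 members. The order of brainstem and cortex in this sum rests in large part on Lgmn, while more of the 18 genes were called higher than lower in cortex.

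The ligands did not all share one direction. Cx3cl1, the neuronal ligand of CX3CR1, averaged 781.4 ± 40.5 CPM in cortex, 308.4 ± 19.2 in hypothalamus and 191.3 ± 15.0 in brainstem (SD, n = 6). Il34, the ligand of CSF1R made largely by neurons, averaged 49.5 ± 3.12 CPM in cortex, 24.5 ± 2.01 in hypothalamus and 13.1 ± 1.24 in brainstem. Csf1, the other ligand of CSF1R, named here after its values were seen, was lower in cortex (22.3 ± 2.86 CPM) than in hypothalamus (37.4 ± 3.87) and brainstem (38.4 ± 1.92), with no overlap. Among signalling partners, Inpp5d, a lipid phosphatase gene acting below these receptors, averaged 18.04 ± 0.69 CPM in cortex and 8.77 ± 0.82 in hypothalamus. Over the 13 ligands and partners, 8 were called lower and 2 higher in hypothalamus than in cortex (37.2% and 38.7% of all genes), with a median of -0.44.

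More of the genes that rise in activated microglia were called higher than lower in hypothalamus against cortex. Of 22 listed, 18 were tested, and 12 were called higher and 3 lower in hypothalamus than in cortex (median 0.43), while 13 were called lower and 1 higher in cortex than in brainstem (median -0.51). The shares of all genes were 38.7% higher and 37.2% lower in the first comparison, and 39.8% lower and 38.7% higher in the second. Cd63, a lysosomal tetraspanin gene, averaged 68.4 ± 5.05 CPM in hypothalamus and 27.0 ± 1.05 in cortex. Cd9, another tetraspanin gene, averaged 46.6 ± 3.26 in hypothalamus, 25.8 ± 1.65 in cortex and 62.8 ± 3.72 in brainstem. Ctsl, a lysosomal protease gene, averaged 131.0 ± 5.20 CPM in hypothalamus, 73.6 ± 1.45 in cortex and 124.3 ± 8.76 in brainstem. Apoe, the apolipoprotein E gene, averaged 1298 ± 112.9 CPM in hypothalamus and 786.7 ± 19.3 in cortex. Many of these genes are also expressed by astrocytes, oligodendrocytes or neurons, and the makeup of the tissues differed. Summed oligodendrocyte markers (6 genes) ranged from 16820 to 20770 CPM in brainstem, 3510 to 4668 in cortex and 4201 to 5743 in hypothalamus, and summed neuron markers (9 genes) from 3520 to 4785 CPM in hypothalamus and from 7535 to 8579 in the others. Their part in these differences was not tested. Of 8 border macrophage markers, 5 were called lower in hypothalamus than in cortex (37.2% of all genes), among them Mrc1, the mannose receptor gene, at 2.93 ± 1.14 against 6.82 ± 0.44 CPM. Lyve1 and Cd163, which help define those cells, were present at low level in every wild-type tissue (means from 0.79 to 1.84 CPM), and the part of border cells in the members' levels was not tested.

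**Figure D2:**
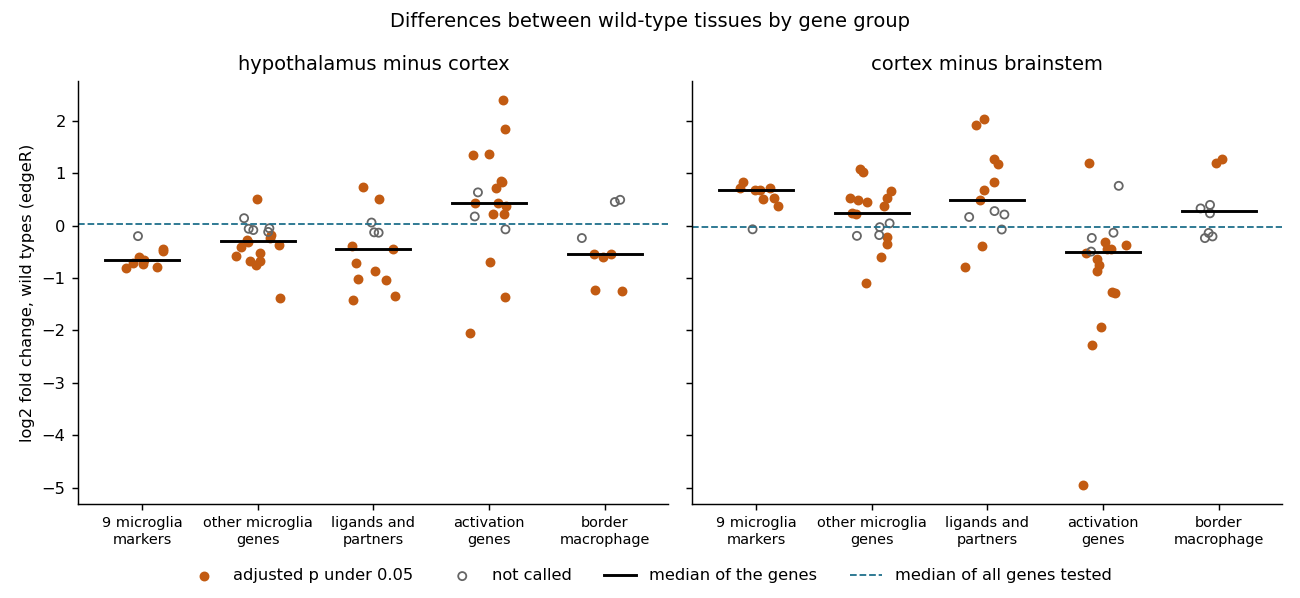
Log2 fold changes between wild-type tissues for the genes of 5 lists, hypothalamus minus cortex on the left and cortex minus brainstem on the right (filled, adjusted p under 0.05; open, not called; bar, median of the list; dashed line, median of all genes tested). The 9 markers lie below 0 on the left and, but for Tyrobp, above 0 on the right, and the activation genes lie mostly on the other side.

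Neither narcolepsy model changed a microglia marker by the test used. Over 6 comparisons, each model against its own wild type in 3 tissues, 0 of the 54 member values were called by edgeR, and 2 had an unadjusted p under 0.05: Tmem119 in transgenic hypothalamus, where 4.16% of all genes did, and Aif1 in transgenic brainstem, where 8.35% did. DESeq2 and limma voom also called 0, although DESeq2 gave no adjusted p for the members in the transgenic brainstem. Few genes of any kind were called: 0.00597% (transgenic) and 0.0119% (knockout) in hypothalamus, 0% and 0.0789% in cortex, and 0.00606% and 0.0728% in brainstem. The knockout cortex count went from 13 genes to 40 with limma voom. The transgenic brainstem count went from 1 gene to 457 without replicate 3 of its wild type, which leaves the pair of wild-type libraries with high shares outside genes, and to 5 without that pair. Leaving out Aif1, the 48 values of the other 8 members ran from -0.23 (Cd68, transgenic brainstem) to 0.28 (Tmem119, transgenic hypothalamus), with SEs of 0.05 to 0.14. Their 95% intervals, from each gene's SE and degrees of freedom, reached from -0.52 to 0.51, or from 0.699-fold to 1.42-fold.

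In the transgenic hypothalamus, where the neurons are lost, all 9 point estimates lay above 0, as did 52.7% of all genes, with a median of 0.12 against 0.01 over all genes. In knockout hypothalamus 4 lay above 0 (53.2% of all genes; median of the members -0.01). In cortex the counts were 6 in transgenics (51.4%; median 0.08) and 1 in knockouts (49.7%; median -0.04). In brainstem they were 2 in transgenics (50.1%; median -0.05) and 1 in knockouts (52.1%; median -0.06). Members share microglia as their source, so these counts are not 9 independent readings. Without the 4 libraries with Gh or Omp, which leaves 1 wild-type library of the ataxin-3 line in that tissue, Cx3cr1 was -0.07 (SE 0.14) and Cd68 was -0.17 (SE 0.23), and the other 7 stayed above 0. Without transgenic replicate 2, Itgam was -0.02.

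Tmem119 had the lowest p in the transgenic hypothalamus among the members. The transgenic libraries held 18.2, 15.3 and 14.3 CPM, and their wild types 13.1, 13.7 and 13.1. The groups did not overlap, as held for 4.62% of all genes in the same direction, and the difference was 0.28 (SE 0.11, unadjusted p = 0.026, adjusted p = 1.0). The highest value belongs to replicate 1, the library with Omp. That library also stood apart for the summed markers of meningeal fibroblasts (5 genes, 892.6 CPM against 53.3 to 84.8 in the other libraries of the line) and border macrophages (8 genes, 246.2 CPM against 12.8 to 20.7). Mrc1 did not carry the border macrophage sum, at 4.328 CPM there against 3.297 and 3.825 in transgenic replicates 2 and 3. The wild types of the line held 1.853, 3.638 and 1.596 CPM of Mrc1. The cell source of that sum was not tested. Without transgenic replicate 1 the Tmem119 difference was 0.14 (SE 0.09), and without all 4 libraries with Gh or Omp it was 0.10 (SE 0.15). In the knockout hypothalamus Tmem119 was 14.9, 13.3 and 13.3 CPM against 14.8, 14.2 and 13.2, a difference of -0.02 (SE 0.11). The second pair of groups that did not overlap was Tmem119 in knockout brainstem, 13.7, 14.3 and 14.2 CPM against 14.9, 15.5 and 14.7 (-0.09, SE 0.09, edgeR unadjusted p = 0.33), as held for 4.69% of all genes in that direction.

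**Figure D3:**
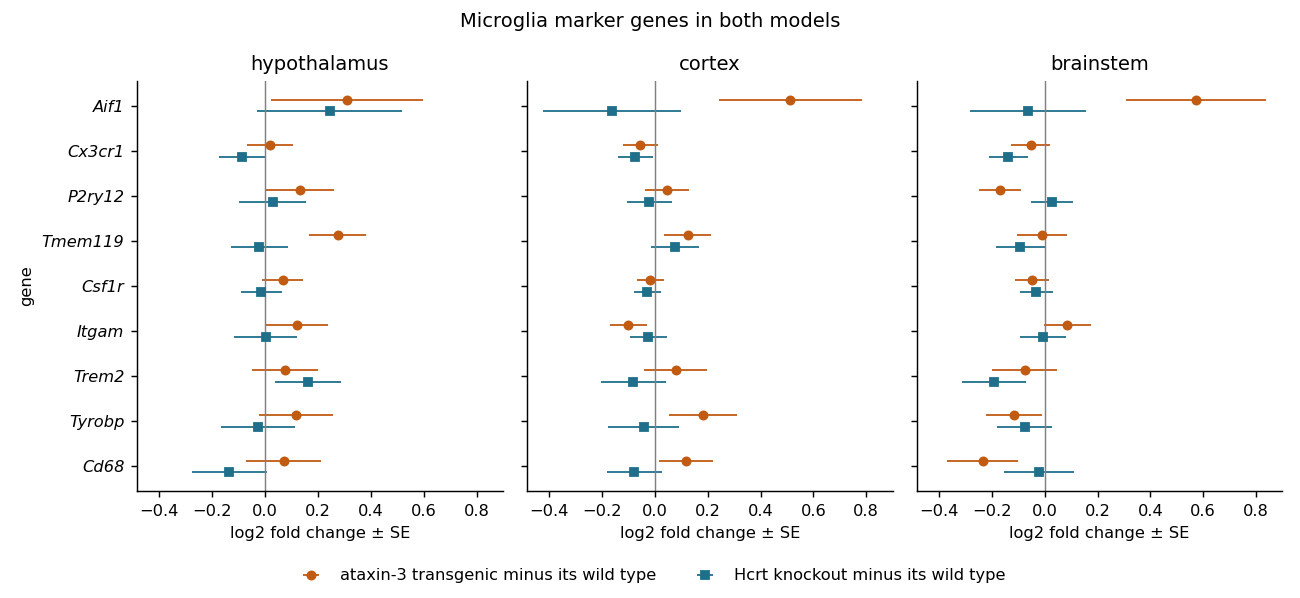
Log2 fold change (x axis) of each of the 9 genes in each model against its own wild type, by tissue, as the edgeR estimate with its standard error (circles, ataxin-3 transgenic; squares, Hcrt knockout; 3 libraries a group). Apart from Aif1, the estimates lie between -0.23 and 0.28, and none of the 54 had an adjusted p under 0.05.

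One cortex library stood out within its group. Transgenic replicate 1 was the highest of the 12 cortex libraries for Aif1 (4.84 CPM), Tmem119 (23.7), Trem2 (13.6), Tyrobp (13.8) and Cd68 (8.91), and the lowest for Itgam (22.3). It also had the lowest share of counts outside annotated features in cortex (10.6%, against 12.7% to 13.9% in the other 11) and the highest share of reads not aligned uniquely (19.2%, against 16.0% to 17.1%). The part of these shares in its levels was not tested. Its Csf1r (105.2 CPM) and P2ry12 (40.5 CPM) lay within the range of the other cortex libraries. With it, Tyrobp in transgenic cortex was 0.18 (SE 0.13) above its wild type, and without it -0.03 (SE 0.09). Trem2 likewise went from 0.08 (SE 0.12) to -0.07 (SE 0.10).

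The effects of the models did not differ from each other, nor between tissues, beyond the error of the test. Across 3 differences between the models and 6 differences of 1 model's effect between tissues, 0 of 81 member values were called by edgeR and 0 had an unadjusted p under 0.05. DESeq2 and limma voom also called 0. The values ran from -0.30 to 0.68, the highest for Aif1 in cortex. Of all genes, 0% were called for the difference between models in hypothalamus and brainstem and 0.0243% in cortex. For the differences between tissues the share was 0% for the transgene effect and at most 0.00564% for the knockout effect.

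Aif1 differed between wild types of the mouse lines. Its level in hypothalamus was 0.892, 1.07 and 1.95 CPM in wild types of the ataxin-3 line and 2.62, 2.44 and 3.17 CPM in wild types of the knockout line. In cortex the values were 1.83, 1.88 and 3.41 CPM against 3.55, 4.58 and 4.29. In brainstem they were 0.967, 0.755 and 1.42 CPM against 2.85, 3.51 and 2.36. The ataxin-3 line was lower in each tissue with no overlap, although the single-tissue tests did not pass: -1.06 (SE 0.28, adjusted p = 1.0), -0.79 (SE 0.26, adjusted p = 1.0) and -1.41 (SE 0.25, adjusted p = 0.15). In brainstem Aif1 had the third lowest p of 16493 genes. It was called there without a filter on low counts (adjusted p = 0.012) and without replicate 3 of the ataxin-3 line's wild types (-1.74, adjusted p = 0.0022). The other 2 of those wild types are the libraries with high shares outside genes. Without replicate 1 the brainstem difference was -1.34 (adjusted p = 0.64), without replicate 2 it was -1.26 (adjusted p = 0.21), and without both it was -1.03 (adjusted p = 0.85). In these comparisons 0% of genes were called by edgeR in any tissue. In brainstem the count went from 0 to 1177 without replicate 3 and to 7 without replicates 1 and 2, and DESeq2 called 254. Of all genes, 5.85%, 5.24% and 6.39% lay lower without overlap in hypothalamus, cortex and brainstem.

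The mean of the line difference over the 3 tissues was tested after these values had been seen, in the fit of all 36 libraries. Aif1 was 2.13-fold lower in wild types of the ataxin-3 line (-1.09, SE 0.17, adjusted p = 0.0025 by edgeR), lower in all 3 tissues. It ranked second by p among 17744 genes, of which 0.0338% were called, 0.0225% as lower. The labels do not say whether the tissues come from the same mice, so the 3 tissues may not be independent of each other. Among the ataxin-3 line's wild types, replicate 3 was the highest for Aif1 in every tissue. Without the 2 brainstem libraries with high shares outside genes, which leaves 1 wild-type brainstem of the ataxin-3 line, Aif1 was -0.96 (SE 0.20) and was not called (adjusted p = 0.14), and 1 gene was called in all. The part of those libraries in the difference was not tested further. Over the 26 other settings the adjusted p ran from 2.1e-06 (DESeq2) to 0.033 (without the 4 libraries with Gh or Omp), and the difference from -1.02 to -1.23. Without replicate 2 of the knockout line's wild-type cortex, the library with 30 counts of Hcrt, it was -1.07 (adjusted p = 0.0065). None of the other 8 members was called, and their differences lay between -0.083 and -0.001 with SEs of 0.04 to 0.08.

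In the affected mice, the Aif1 values lay lower in the ataxin-3 line in hypothalamus and brainstem. Transgenics were not tested against knockouts, and the share of all genes that separate in this way was not counted. The transgenic hypothalami held 1.69, 1.52 and 1.63 CPM of Aif1 and the knockout hypothalami 4.26, 2.58 and 2.90. Transgenic brainstems held 2.27, 1.37 and 1.29 CPM and knockout brainstems 2.54, 2.69 and 3.11. In cortex the transgenic libraries (4.84, 3.16 and 2.25 CPM) overlapped with the knockouts (4.01, 3.48 and 3.58), through the replicate 1 described above. Within the ataxin-3 line, transgenic libraries lay above their wild types on average in each tissue, by 0.31 (SE 0.29), 0.51 (SE 0.27) and 0.57 (SE 0.26) in hypothalamus, cortex and brainstem, with overlap in each and no adjusted p under 0.59. The brainstem value was 0.19 (SE 0.33) without the 2 wild-type libraries with high shares outside genes.

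**Figure D4:**
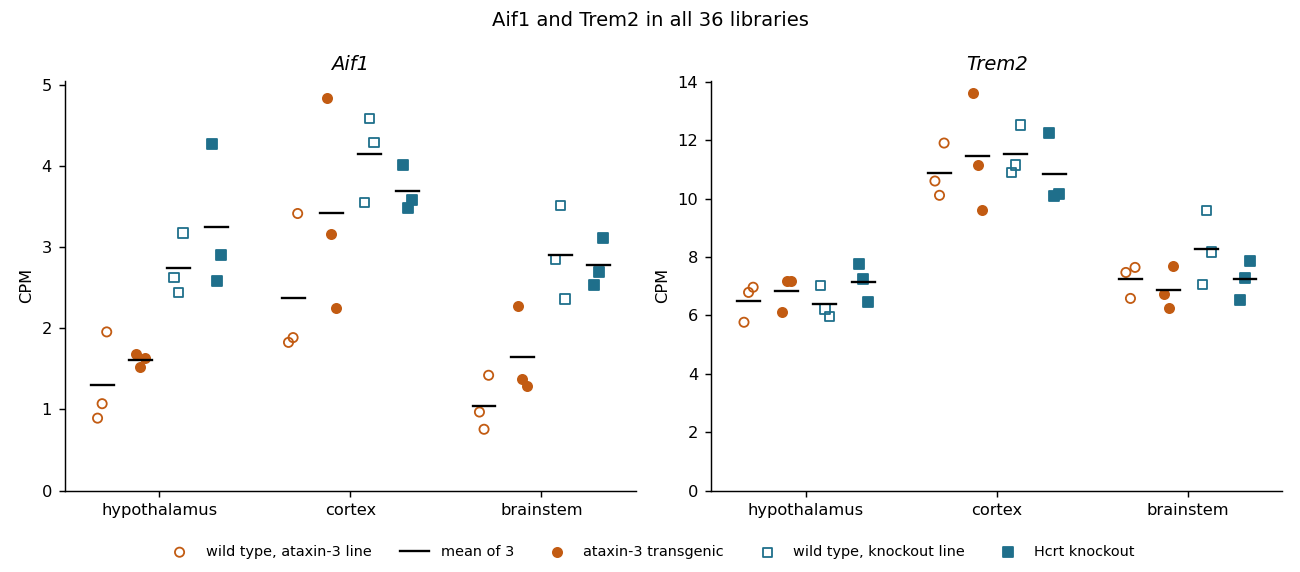
Levels of Aif1 (left) and, for comparison, Trem2 (right) in all 36 libraries by tissue and group, in TMM-scaled CPM (open circles, ataxin-3 line wild types; filled circles, transgenics; open squares, knockout line wild types; filled squares, knockouts; bars, means of 3). Aif1 lies lower in the ataxin-3 line wild types than in the knockout line wild types in every tissue, and the 2 lines overlap for Trem2.

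Aif1 lies at chr17:35170991-35176068 (GRCm38, minus strand), within the major histocompatibility complex of the mouse. Of the 103 other tested genes within 1 Mb, 0 were called by edgeR in the line comparison over 3 tissues. Of these, 73 lay below 0, as did 8951 of all 17744 genes tested, with a median of -0.057 against -0.001 over all genes. The lowest value was that of Ly6g6e (-1.73, SE 0.51, adjusted p = 0.63). C4b, a complement gene, was -0.31 (SE 0.07, adjusted p = 0.23) and Tap2, a peptide transporter gene, -0.23 (SE 0.06, adjusted p = 0.26). All 3 were picked out after their values were seen. Markers of other cells that express Aif1 were called in no case by edgeR: 0 of 8 border macrophage genes (7 below 0, median -0.23), whose sum in wild types ranged from 12.8 to 20.7 CPM in the ataxin-3 line and 15.6 to 24.9 in the knockout line in hypothalamus. The same sums were 34.8 to 37.6 against 34.4 to 37.0 CPM in cortex and 17.3 to 21.5 against 18.5 to 21.04 in brainstem. Of 8 tested blood leukocyte genes 0 were called (7 below 0, median -0.50). The part of either cell type, and of nearby genes, in the Aif1 difference was not tested.

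Across libraries of a tissue, members varied together to different degrees. These correlations are over 36 libraries after subtracting each tissue's mean and describe shared variation. The part of library composition in it was not tested. The 36 pairs of members had correlations from -0.053 to 0.759 with a median of 0.316. The level for pairs of other genes was not computed. Csf1r and Itgam formed the closest pair (0.759), followed by Cx3cr1 and Itgam (0.605) and by Tyrobp and Cd68 (0.597). Against the mean of the other 8, over all 36 libraries, Cx3cr1 was highest (0.70) and Trem2 next (0.61), while Aif1 was lowest (0.33). Within single tissues the lowest was Tmem119 in hypothalamus (0.11), Itgam in cortex (-0.12) and P2ry12 in brainstem (0.12). Aif1 was 0.33, 0.55 and 0.20 in the same tissues. Outside the list, the genes with the most similar pattern to the mean of the 9 were C1qc (0.73), Fcrls (0.73), C1qb (0.71), Fcgr3 (0.66), Ephx2 (0.66), BC022960 (0.66), Gp9 (0.65), Fhl3 (0.65), Lag3 (0.64) and Ppp1r18 (0.62). Single tissues differed: the lowest of these genes was Gp9 in hypothalamus (0.39), Ppp1r18 in cortex (0.16) and Fhl3 in brainstem (0.33).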

How the data were processed

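The submitters' processing notes name cutadapt 1.2.1, TopHat2 2.0.9, HTSeq 0.5.4p3 and the build GRCm38. The deposited values are raw counts per Ensembl gene, and the strand setting of the counting is not given in the sources used here. Rows that name no gene (24.7 to 42% of a library) were left out. From the counts, edgeR 4.0.16 (R 4.3.3; TMM factors, filterByExpr by group, robust glmQLFit and glmQLFTest) was fitted per tissue on 12 libraries and, for tissues, interactions and lines, on all 36; p-values were Benjamini-Hochberg adjusted over all genes tested. The standard error is the log2 fold change divided by the root of its F statistic. Groups come from the labels. The counts of replicate pairs differed beyond sampling noise. Per group, 3 libraries and, for Aif1, few counts limit the precision. Members and lists were chosen with earlier results of these data known; all members are named, and of each other list up to 4 genes with the lowest p in a comparison, with the 10 genes most correlated with the members' mean. Alternatives were DESeq2 1.42.0, limma 3.58.1 (voom with quality weights), RLE factors, other filters, fewer groups or libraries, and a replicate block. The edgeR fit was also run on simulated counts with known changes. These had the same spread for every gene and no libraries that stood apart, so they do not show how well the tests work here. Sequences are from RefSeq. One gene among the signalling partners is not reported here.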

Additional observations from a re-analysis of the deposited data

How the results depend on the processing

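The members called were 8 in cortex minus brainstem under each of 21 other settings. In hypothalamus minus brainstem the count fell from 2 to 1 without the 4 libraries with Gh or Omp, and ranged from 1 to 2 when each library was left out in turn; Aif1 turned to -0.111 without the 4. For brainstem wild types of the lines the count rose from 0 to 1 with no filter on low counts, and ranged from 0 to 1 when each library was left out. For the mean line difference over 3 tissues it fell from 1 to 0 without the 2 brainstem libraries with high shares outside genes, an alternative chosen after seeing the data. Within tissues, 19 of 1602 member values, none of them called, changed sign by more than their standard error. Without the 4 libraries these were, in hypothalamus, Cx3cr1 (-0.068) and Cd68 (-0.171) for the transgenics, Cd68 for the difference between models (-0.014) and Cd68 for the lines (0.082). Without those 2 brainstem libraries Csf1r was 0.029 for the transgenics in brainstem. With limma voom the values were, in cortex, Trem2 (-0.077) and Tyrobp (-0.000) for the transgenics, and Tmem119 (-0.088) and Trem2 (-0.054) for the difference between models.

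The rest came from leaving out 1 library at a time. The ranges were, for the transgenics, -0.020 to 0.198 for Itgam in hypothalamus and, in cortex, -0.004 to 0.198 for Tmem119, -0.074 to 0.194 for Trem2, -0.030 to 0.327 for Tyrobp and -0.101 to 0.012 for Cx3cr1. For the knockouts they were -0.085 to 0.064 for P2ry12 in cortex and -0.178 to 0.031 for Tyrobp in brainstem. For the difference between models in cortex, Tmem119 ranged from -0.080 to 0.123. For the lines in cortex, P2ry12 ranged from -0.144 to 0.003 and Cx3cr1 from -0.060 to 0.058. The causes were not tested.

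The labels share replicate numbers between groups but do not say that a number marks an animal. Same-numbered libraries of different genotypes in a tissue had correlations of their deviations from -0.29 to 0.414 (median 0.07, 27 pairs). Those of the same genotype in different tissues, which could share an animal, ran from -0.159 to 0.1 (median -0.003, 36 pairs). The numbers were not taken as pairs, although these values cannot show whether a number marks the same animal across tissues. With the replicate block the counts of members called were 0 within tissues and 8, 2 and 8 between tissues, unchanged from the fit without it. The number of libraries limits the precision, and for Aif1 the low counts do too.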
